A study of Homo sapiens with 6 samples.

Results

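The hemidesmosome integrins and their laminin ligands were examined in BT549 cells, a human triple-negative breast cancer line, with and without induction of the microRNA miR-200c. The set held 8 genes: ITGA6, ITGB4, ITGA3, LAMA3, LAMB3, LAMA5, PLEC and CD151. A gene was measured on the array rows whose platform symbol was that gene and no other, and by this rule 6 of the 8 genes had values, on 535 of the 924687 rows tested. All 6 cultures were BT549-pTripZ-200c cells, which carry a doxycycline-inducible miR-200c construct, and grew attached in RPMI with 10% serum. The miR-200c group (replicates A, B and C) received 1 µg/mL doxycycline for 48 h, and the Ctrl group (replicates A, B and C) was left untreated. Both groups carry the construct and doxycycline was given to the miR-200c group alone, so an effect of the drug itself and one of the microRNA cannot be told apart.

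Hemidesmosomes anchor epithelial cells to the basement membrane. Outside the cell, laminin-332, a trimer that holds the chains made from LAMA3 and LAMB3, is bound by the integrin pair encoded by ITGA6 and ITGB4. Inside the cell the long tail of the ITGB4 protein binds plectin, which links it to keratin filaments. ITGA3 pairs with ITGB1 to form another laminin receptor, and the tetraspanin CD151 associates with both laminin-binding integrins at the membrane. In breast epithelium, ITGA6 and ITGB4 are typical of the basal cells that rest on the basement membrane. The miR-200 family represses ZEB1 and ZEB2, transcription factors that bind E-box motifs and repress epithelial genes.

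The miR-200c hairpin gives a mature strand from each arm, shown here because miR-200c is the microRNA of the inducible construct. The groups themselves are defined by doxycycline. MIR200C has 1 row here, which gives no separate level for either strand. The seed, bases 2 to 8, is in capitals, and sequences and positions are RefSeq's on GRCh38.p14, plus strand, at chr12:6963742-6963764 for the 3p strand and chr12:6963703-6963724 for the 5p strand.
hsa-miR-200c-3p: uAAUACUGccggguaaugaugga
hsa-miR-200c-5p: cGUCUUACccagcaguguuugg

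RefSeq promoter windows, which run 250 bases before to 50 bases after a gene's start, were searched for 4 of the 8 genes. Of these windows, 2 are shown because they belong to measured members and hold the ZEB-type E-box CACCTG, given in capitals. No window was searched for the measured members ITGB4, ITGA3, PLEC and CD151, so whether theirs hold the motif is not known. The motif was searched on both strands, CAGGTG being its reverse complement. The ITGA6 window at chr2:172427086-172427385 on the plus strand held 2 matches. A neighbouring ITGA6 window at chr2:172427336-172427635 held 0. The LAMA3 window at chr18:23872770-23873069 on the plus strand held 1 match. Among members without values, LAMB3 and LAMA5 each had a window with 1 match, while the other LAMB3 windows held 0. So every gene searched had a match. Of 35116 windows of the table, 20.6% held at least 1 match and 3.49% held at least 2. A match describes these letters in these windows and is not a measured binding site.
ITGA6: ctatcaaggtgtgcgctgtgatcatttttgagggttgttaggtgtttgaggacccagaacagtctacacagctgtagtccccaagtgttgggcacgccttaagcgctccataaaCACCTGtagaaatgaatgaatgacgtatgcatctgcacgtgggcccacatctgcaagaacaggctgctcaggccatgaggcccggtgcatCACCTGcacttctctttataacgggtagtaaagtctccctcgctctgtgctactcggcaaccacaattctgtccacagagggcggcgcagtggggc
LAMA3: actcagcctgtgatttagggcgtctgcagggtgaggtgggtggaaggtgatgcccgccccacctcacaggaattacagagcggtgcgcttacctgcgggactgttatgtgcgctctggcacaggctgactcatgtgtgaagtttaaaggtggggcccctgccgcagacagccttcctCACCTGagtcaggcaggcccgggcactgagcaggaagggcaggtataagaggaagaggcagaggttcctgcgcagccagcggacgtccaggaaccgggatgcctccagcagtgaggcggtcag

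Array medians lay between 5.18 and 5.21 on the log2 scale, and the lowest correlation between any pair of arrays was 0.9937. MIR200C, on 1 row, averaged 9.53 ± 0.0242 in miR-200c cultures and 4.96 ± 0.256 in Ctrl cultures (SD, n = 3 each). ZEB1 fell, with a change of -0.77 (limma adjusted p = 1.07e-05); with the median of its rows in place of their mean the adjusted p was 0.0784. Array background was taken from 23 control rows, which ranged between 4.10 and 6.36, so levels within that range are not well above background. Of the epithelial marker list, 5 of 6 genes rose (CDH1, ESRP1, KRT8, KRT18 and EPCAM), and the mean over that list lay between 7.32 and 7.37 in miR-200c cultures and between 6.38 and 6.45 in Ctrl cultures. Of 5 mesenchymal markers, 3 fell and 1, CDH2, rose. The hormone receptors ESR1 and PGR, and the measured leukocyte, endothelial and erythroid markers (3, 3 and 1 genes), had both group means within the background range, and 0 of them changed. The part that this wider epithelial change has in the results below was not tested. In bulk RNA a different share of cells making a transcript and a different amount per cell cannot be told apart.

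On the mean of their rows, both chains of the hemidesmosome integrin rose in miR-200c cultures: ITGB4 by 0.44 and ITGA6 by 0.35 in log2. The change of ITGA3, LAMA3, PLEC and CD151 did not pass the threshold, an adjusted p under 0.05. So 2 of the 6 measured members rose and 0 fell, while over 22085 genes 9.9% were called, 6.06% higher and 3.84% lower. A gene's level is the mean of the deposited log2 values of its rows, a change is miR-200c minus Ctrl, and p-values come from limma, adjusted by Benjamini-Hochberg over all genes. Both calls have limits. The ITGB4 means lay within the background range. On rows above that range in both groups, an alternative chosen after the values were seen, ITGB4 did not pass (change 0.05, adjusted p = 0.738). The ITGA6 call was lost with the median of its rows (adjusted p = 0.233) and with junction rows alone (adjusted p = 0.0644). Groups did not overlap for 5 of the 6 members, 4 with the miR-200c cultures above and 1, LAMA3, with them below; over all genes 14.3% lay apart upward and 11.8% downward. The median change of the measured members was 0.09, against -0.0083 over all genes.

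**Figure D1:**
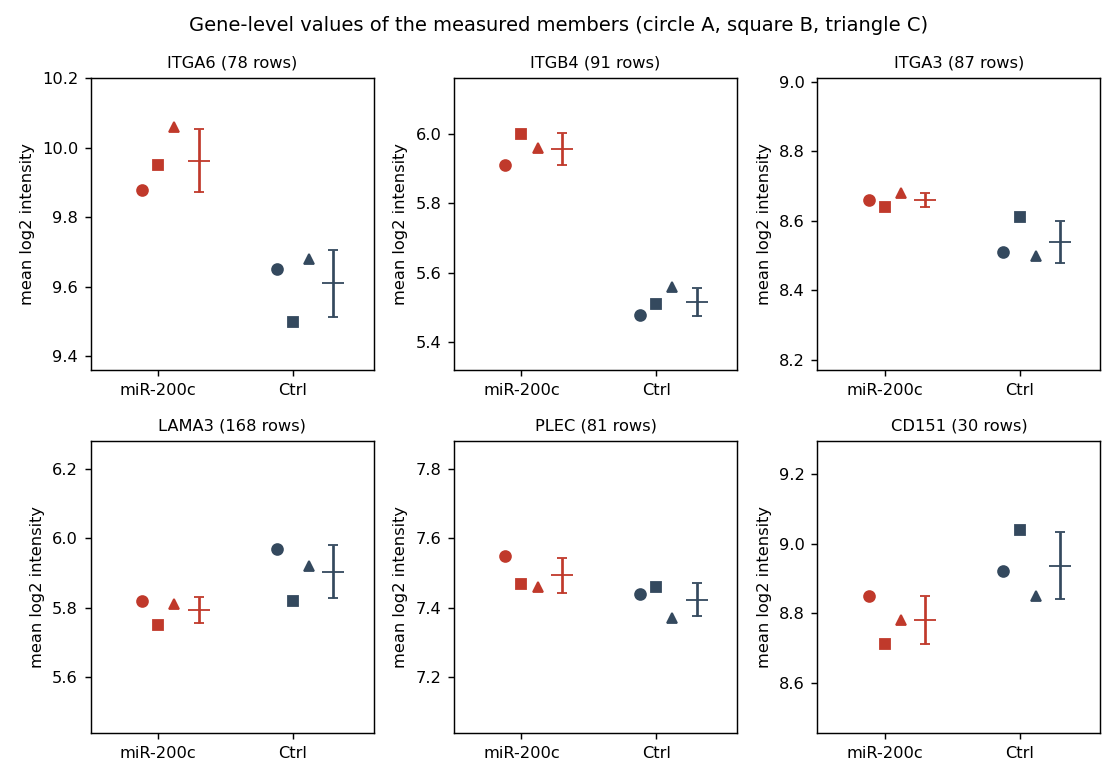
Gene-level log2 intensity of the 6 measured members in each culture, with miR-200c left of Ctrl, points for replicates A (circle), B (square) and C (triangle), and bars for the mean ± SD (n = 3). ITGB4 and ITGA6 lie apart upward, while ITGB4 and LAMA3 have both group means within the background range, which is not drawn here.

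LAMA3, the alpha chain of laminin-332, had levels of 5.82, 5.75 and 5.81 in miR-200c cultures A, B and C, against 5.97, 5.82 and 5.92 in Ctrl cultures A, B and C. The miR-200c cultures were the lower ones, but the gap between the highest of them and the lowest Ctrl culture was narrow. The change of -0.11 (SE 0.05, 168 rows) had an adjusted p of 0.208, and both means lay within the background range. LAMB3, the beta chain of laminin-332, was named only on 58 rows that also carry MIR4260. LAMA5, the alpha chain of laminins of the mature basement membrane, was named only on 201 rows that also carry MIR4758. No level is given for either.

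ITGA6 encodes the alpha chain shared by the hemidesmosome integrin and a second laminin receptor with ITGB1. Its level was 9.88, 9.95 and 10.06 in miR-200c cultures A, B and C, against 9.65, 9.50 and 9.68 in Ctrl cultures A, B and C. Every miR-200c culture was above every Ctrl culture. The change was 0.35 (SE 0.06, 95% interval 0.21 to 0.49, 78 rows), or 1.28-fold, with a limma adjusted p of 0.00801. The call was lost with the median of the rows (change 0.43, adjusted p = 0.233) and with junction rows alone (change 0.43, adjusted p = 0.0644).

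ITGB4 encodes the beta chain that pairs with the ITGA6 chain in the hemidesmosome integrin. Its level was 5.91, 6.0 and 5.96 in miR-200c cultures A, B and C, against 5.48, 5.51 and 5.56 in Ctrl cultures A, B and C. The groups were apart, with spread within each group far below the gap. The change was 0.44 (SE 0.04, 95% interval 0.35 to 0.53, 91 rows), with a limma adjusted p of 0.000233. Both means were within the background range, because most of the gene's rows were dim, so the gene-level change is not given as a fold; the brighter rows are described further on. On rows above the background range in both groups alone, an alternative chosen after the values were seen, ITGB4 did not pass (change 0.05, adjusted p = 0.738); this leaves out rows that were above that range in one group.

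ITGA3, the alpha chain of the laminin receptor that pairs with ITGB1, had levels of 8.66, 8.64 and 8.68 in miR-200c cultures A, B and C, against 8.51, 8.61 and 8.50 in Ctrl cultures A, B and C. The groups were apart by a small step, with Ctrl culture B nearest to the miR-200c cultures. The change was 0.12 (SE 0.04, 95% interval 0.03 to 0.21, 87 rows), with an adjusted p of 0.105. Without Ctrl replicate B it was 0.16 with an adjusted p of 0.0311. Its partner ITGB1 had levels of 10.14, 10.20 and 10.18 in miR-200c cultures A, B and C, against 10.22, 10.26 and 10.32 in Ctrl cultures A, B and C, a change of -0.10 with an adjusted p of 0.182.

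PLEC encodes plectin, the cytolinker between ITGB4 and keratin filaments. Its level was 7.55, 7.47 and 7.46 in miR-200c cultures A, B and C, against 7.44, 7.46 and 7.37 in Ctrl cultures A, B and C. The groups were apart by the smallest of margins, and the change was 0.07 (SE 0.04, 95% interval -0.02 to 0.16, 81 rows; adjusted p = 0.406). CD151, the tetraspanin partner of both integrins, was the one member whose groups overlapped. It had levels of 8.85, 8.71 and 8.78 in miR-200c cultures A, B and C, against 8.92, 9.04 and 8.85 in Ctrl cultures A, B and C. The change was -0.16 (SE 0.06, 95% interval -0.29 to -0.03, 30 rows), with an adjusted p of 0.145. Before adjustment 3 of the 6 members (ITGA6, ITGB4 and ITGA3) were higher and 2 (LAMA3 and CD151) lower at a p under 0.05, where 12.5% of all genes were higher and 9.34% lower.

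The array resolves each gene into rows for single exon regions and rows for exon junctions, and the members differed in how evenly their rows moved. Over the 535 member rows, 14 rose and 1 fell at an adjusted p under 0.05 over all rows, where 0.451% of all rows were called higher and 0.277% lower. Rows whose groups lay apart upward made up 7.8% of all rows, and those apart downward 7.47%. The median change over all rows was -0.01, and 47.7% of all rows had a positive change. Rows of one gene are measured on the same arrays and are not replicates of the condition.

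**Figure D2:**
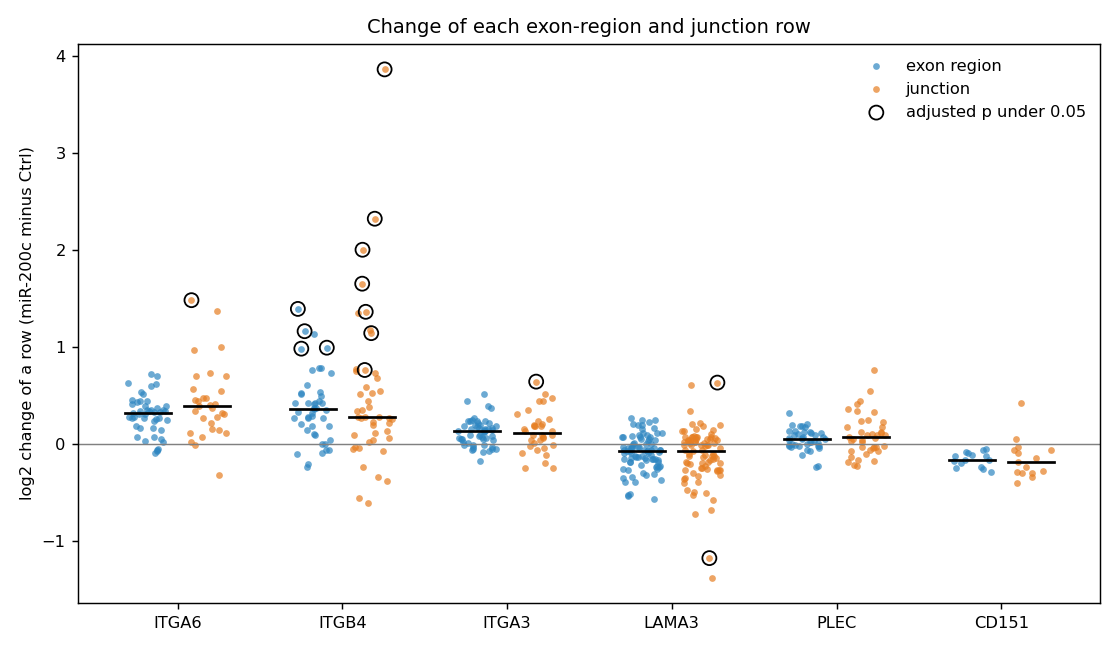
Change in log2 (miR-200c minus Ctrl) of each row of the 6 measured members, with a black line at the median and rings on rows with an adjusted p under 0.05. ITGA6 and ITGB4 have medians of 0.33, and the ITGB4 rows reach furthest, up to 3.86.

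Most ITGA6 rows had higher values in miR-200c cultures: 72 of 78 had a positive change, the median was 0.33, and the middle 50% of rows lay between 0.17 and 0.45. The groups lay apart upward on 47 rows (60.3%) and downward on 0. Exon regions (47 rows, median 0.32) and junctions (31 rows, median 0.39) gave like medians. At the row level 1 row passed, the junction row JUC02008179, with levels of 11.39, 11.75 and 11.88 in miR-200c cultures A, B and C, against 10.50, 9.77 and 10.31 in Ctrl cultures A, B and C. It stood apart by 1.48 (SE 0.21, adjusted p = 0.0398), or 2.79-fold. It did not pass when any 1 of the 6 arrays was left out (adjusted p 0.0549 to 0.172), while with a variance trend 5 ITGA6 rows passed. Of the rows below the gene's own change, the one with the smallest p relative to the gene did not pass: the exon-region row PSR02015330 was at 10.91, 10.91 and 10.99 in miR-200c cultures and 11.06, 10.92 and 11.02 in Ctrl cultures, a change relative to the gene of -0.41 (adjusted p = 0.166). Against the gene mean 0 of the 78 ITGA6 rows differed.

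ITGB4 was uneven. Of its 91 rows, 76 had a positive change, 47 (51.6%) lay apart upward and 4 (4.4%) apart downward, and 11 rose by the row test, 7 of them junctions and 4 exon regions. The median was 0.33, with the middle 50% between 0.09 and 0.59. In both groups 18 rows were above the background range, on which changes ran between -0.61 and 0.73, with a median of 0.02, and 0 passed. Another 10 rows were above it in the miR-200c group alone, and 63 were within it in both groups. Grouped by mean level over the 6 arrays, a split chosen after the values were seen, the 21 brighter rows had a median change of 0.09 and the 70 dimmer rows a median of 0.36. For ITGA6 the same split gave medians of 0.35 on 60 brighter rows and 0.07 on 18 dimmer rows.

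The largest step among member rows was on the ITGB4 junction row JUC17006242. Its levels were 8.36, 8.36 and 8.33 in miR-200c cultures A, B and C, against 4.54, 4.29 and 4.63 in Ctrl cultures A, B and C. All Ctrl values lay within the background range and all miR-200c values well above it. The difference of 3.86 (SE 0.10, limma adjusted p = 0.000364) is therefore given as at least 3.97-fold, measured against 6.36, the highest background row. It passed without any 1 of the 6 arrays, with changes between 3.77 and 3.93. Relative to the mean of all ITGB4 rows it was higher by 3.42 (adjusted p = 0.00114). Over 668905 rows tested in this way 0.101% were higher and 0.0846% lower than their gene, and among the member rows 2 were higher and 1 lower.

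On a further pair of ITGB4 junction rows the Ctrl values were within the background range and the miR-200c values above it. JUC17006233 was at 7.79, 7.70 and 7.65 in miR-200c cultures A, B and C, against 5.08, 5.04 and 6.06 in Ctrl cultures A, B and C, at least 2.56-fold higher (adjusted p = 0.0196). JUC17006231 was at 7.33, 6.69 and 6.94 in miR-200c cultures A, B and C, against 4.62, 5.35 and 4.99 in Ctrl cultures A, B and C, at least 1.54-fold higher (adjusted p = 0.0183). On both rows the groups lay apart, but each call held in 1 of the 6 fits that left out an array, without Ctrl replicate C for JUC17006233 (adjusted p up to 0.103 in the others) and without Ctrl replicate B for JUC17006231 (up to 0.0859). Relative to the gene the changes of 1.88 and 1.56 did not pass (adjusted p = 0.0565 and 0.0778).

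On the fourth junction row, JUC17006267, both groups were within the background range: 5.74, 6.30 and 5.87 in miR-200c cultures A, B and C, against 4.34, 4.34 and 4.30 in Ctrl cultures A, B and C. It differed by 1.65 (adjusted p = 0.00795), and by 1.21 relative to the gene (adjusted p = 0.0299). The first call was lost without Ctrl replicate C (adjusted p up to 0.0502 over the 6 fits), and the second without any 1 of the arrays. Some brighter ITGB4 rows went the other way. Of 21 such rows, 3 were lower and 8 higher at an unadjusted limma p under 0.05 (4.62% of all rows were lower at that p). Among the lower ones was the junction row JUC17006227. JUC17006227 was at 6.92, 7.27 and 7.13 in miR-200c cultures A, B and C, against 7.73, 7.55 and 7.88 in Ctrl cultures A, B and C. Its groups were apart downward, with a change of -0.61 (adjusted p = 0.117), and of -1.05 relative to the gene (adjusted p = 0.0275; up to 0.145 without 1 array, and it passed in 1 of those 6 fits, without Ctrl replicate B). The other 7 ITGB4 rows that passed had changes between 0.76 and 1.39. Which exons these junction rows join is not given in the files used here.

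**Figure D3:**
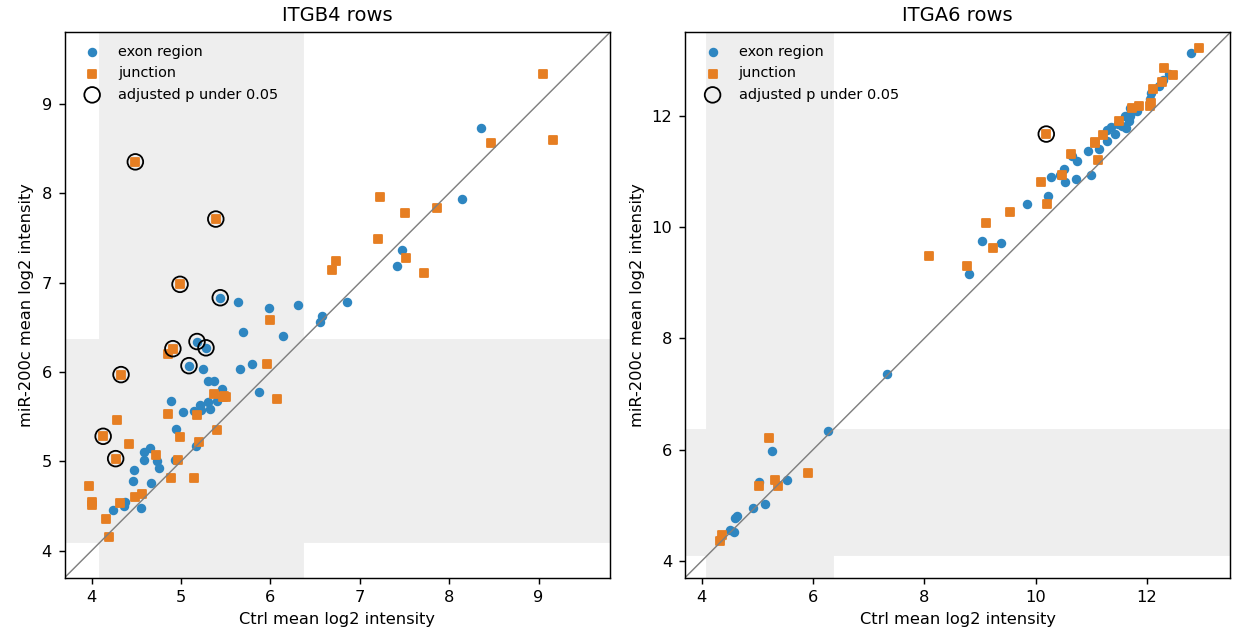
Mean log2 level of each ITGB4 and ITGA6 row in miR-200c cultures (vertical) against Ctrl cultures (horizontal), n = 3 each, with grey for the background range and a diagonal for no change. ITGA6 rows run just above the diagonal at high levels, while most ITGB4 rows start inside the grey range, from which row JUC17006242 stands out at a miR-200c mean of 8.35.

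**Figure D4:**
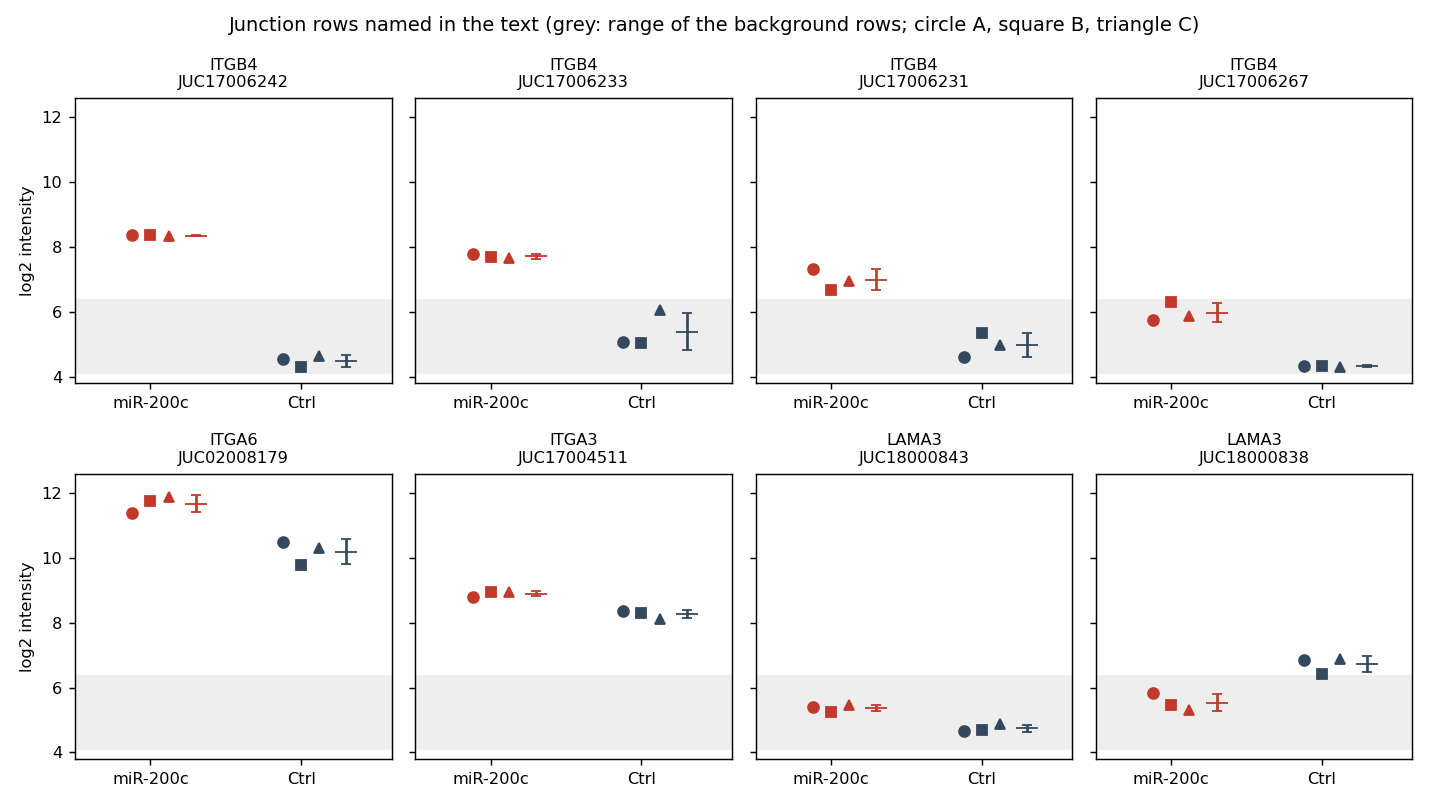
Log2 level of the named member rows in each culture, with miR-200c left of Ctrl, points for replicates A (circle), B (square) and C (triangle), bars for the mean ± SD and grey for the background range. On ITGB4 row JUC17006242 the miR-200c cultures sit between 8.33 and 8.36, above the Ctrl cultures between 4.29 and 4.63.

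ITGA3 rows moved little but mostly one way: 66 of 87 had a positive change, 21 (24.1%) lay apart upward and 1 (1.15%) downward, around a median of 0.13. The junction row JUC17004511 passed, at 8.80, 8.94 and 8.94 in miR-200c cultures A, B and C, against 8.36, 8.29 and 8.12 in Ctrl cultures A, B and C. That difference of 0.64 (SE 0.09, adjusted p = 0.0419), or 1.55-fold, did not pass without any 1 of the arrays (adjusted p 0.0839 to 0.183) or with a variance trend (0.0726). PLEC rows clustered near no change, with 53 of 81 positive, 8 (9.88%) apart upward, 1 (1.23%) apart downward and a median of 0.05. Its junction row JUC08011804 was at 6.86, 6.29 and 6.85 in miR-200c cultures A, B and C, against 5.94, 5.92 and 5.89 in Ctrl cultures A, B and C, and did not pass (change 0.76, adjusted p = 0.127).

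Most CD151 rows had lower values in miR-200c cultures: 2 of 30 had a positive change, 7 (23.3%) lay apart downward and 0 upward, around a median of -0.17, yet 0 passed the row test. An unadjusted p under 0.05 was found for 3 of them, all lower (4.62% of all rows were lower at that p). JUC11000273 was at 8.12, 8.18 and 8.11 in miR-200c cultures A, B and C, against 8.37, 8.74 and 8.52 in Ctrl cultures A, B and C, a change of -0.41 with an adjusted p of 0.223. LAMA3 rows leaned down more weakly, with 58 of 168 positive, 20 (11.9%) apart downward, 7 (4.17%) apart upward and a median of -0.08. In 117 of them both group means were within the background range.

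The rows of LAMA3 that passed went in opposite directions. The junction row JUC18000838 was at 5.84, 5.46 and 5.31 in miR-200c cultures A, B and C, against 6.86, 6.43 and 6.89 in Ctrl cultures A, B and C. All miR-200c values lay within the background range, so it was at least 1.29-fold lower in miR-200c cultures (adjusted p = 0.0477; held only without Ctrl replicate B among the 6 fits that left out an array, and up to 0.195 in the others). JUC18000843 was at 5.40, 5.25 and 5.45 in miR-200c cultures A, B and C, against 4.66, 4.70 and 4.87 in Ctrl cultures A, B and C, within the background range throughout. Its difference of 0.63 (adjusted p = 0.0452) did not pass without any 1 of the arrays (0.0936 to 0.165) or with a variance trend (0.0536).

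The genes around the hemidesmosome were taken as 8 lists, with 69 genes measured. Of these, 9 rose, 10 fell and 50 did not pass, with a median change of -0.02, and 31 had both means within the background range. Over all 22085 genes 6.06% were higher and 3.84% lower, the median change was -0.0083, and 13567 had both means within that range. The same shares are the reference for the counts of each list below, most of which hold few genes. Among other hemidesmosome components, 2 of 4 measured genes rose and the median was 0.22. KRT5, a basal keratin, was at 6.31, 6.36 and 6.33 in miR-200c cultures A, B and C, against 5.89, 5.81 and 5.94 in Ctrl cultures A, B and C, apart but within background on both means (change 0.46, adjusted p = 0.000296). ERBB2IP, now named ERBIN, a binding partner of ITGB4, changed by 0.29 (adjusted p = 0.0294; lost without Ctrl A, Ctrl B, miR-200c B or miR-200c C, up to 0.109). DST, the dystonin gene, and KRT14, the keratin that pairs with KRT5, had changes of 0.15 and 0.05 (adjusted p = 0.104 and 0.459). COL17A1, the hemidesmosomal collagen, was named only on 135 rows that also carry MIR936 and is not reported.

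Among the 8 other laminin chains measured, 0 rose and 2 fell, around a median of -0.06. LAMA4, an endothelial and mesenchymal alpha chain, changed by -0.30 (adjusted p = 0.0191; lost without Ctrl A, Ctrl C or miR-200c A, up to 0.0613). LAMC1, the common gamma chain, changed by -0.14 (adjusted p = 0.0294; held only without Ctrl C among the 6 fits that left out an array, up to 0.0997). Of 8 other laminin receptors 0 passed in either direction, with a median of 0, including ITGB1 and the Lutheran receptor BCAM (change 0.14, adjusted p = 0.0922). Of 12 basement membrane genes 1 fell: NID1, nidogen, which links laminin to type IV collagen, with a change of -0.16 (adjusted p = 0.0354; held only without miR-200c C, up to 0.137).

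Tetraspanins moved individually, 4 of 15 higher and 1 lower around a median of 0.01, beside CD151. TSPAN13 averaged 7.79 ± 0.055 in miR-200c cultures and 7.01 ± 0.0508 in Ctrl cultures (SD, n = 3 each), a change of 0.78 (limma adjusted p = 2.11e-05). TSPAN1 averaged 6.38 in miR-200c cultures and 5.49 in Ctrl cultures, where it was within background (adjusted p = 1.75e-05; at least 1.01-fold). TSPAN6 and TSPAN15 rose by 0.32 and 0.17 (adjusted p = 0.00326 and 0.0153). TSPAN15 was within background on both means and lost its call without Ctrl A, Ctrl C, miR-200c A or miR-200c C (adjusted p up to 0.0626). CD82, a tetraspanin known as a metastasis suppressor, averaged 6.78 in miR-200c cultures and 7.11 in Ctrl cultures (change -0.33, adjusted p = 0.00305), and CD9 did not pass (change 0.09, adjusted p = 0.304).

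Among the plakins, the cytolinker family of plectin, 2 of 6 rose and the median was 0.12. PPL, periplakin of the cornified envelope and desmosomes, was at 6.40, 6.40 and 6.45 in miR-200c cultures A, B and C, against 5.61, 5.60 and 5.67 in Ctrl cultures A, B and C, within background in Ctrl; the difference of 0.79 (adjusted p = 8.38e-06) is at least 1.04-fold. MACF1, a spectraplakin that joins actin and microtubules, averaged 8.26 in miR-200c cultures and 7.87 in Ctrl cultures (change 0.39, adjusted p = 0.00112).

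Of 7 proteases that process laminin or the matrix around it, 0 rose and 4 fell, with a median of -0.22. PLAT, tissue plasminogen activator, averaged 7.74 ± 0.0616 in miR-200c cultures and 8.32 ± 0.0765 in Ctrl cultures (change -0.58, adjusted p = 0.000192). MMP14, a membrane-bound metalloprotease, averaged 9.47 ± 0.0269 in miR-200c cultures and 9.92 ± 0.0511 in Ctrl cultures (change -0.45, adjusted p = 0.000187). BMP1, a procollagen C-proteinase, changed by -0.26 (adjusted p = 0.00372). MMP2, a gelatinase within background on both means, changed by -0.22 (adjusted p = 0.0384; held only without miR-200c C, up to 0.125).

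Of 10 integrin activators and adaptors 1 rose and 2 fell, around a median of -0.05. FERMT2, kindlin-2, averaged 9.26 ± 0.0232 in miR-200c cultures and 9.63 ± 0.0228 in Ctrl cultures (change -0.37, adjusted p = 0.000247). FERMT1, kindlin-1 of epithelia, changed by 0.20 within the background range (adjusted p = 0.0128; lost without miR-200c B or miR-200c C, up to 0.0561). ILK, integrin-linked kinase, changed by -0.18 (adjusted p = 0.039; lost without Ctrl A, Ctrl B, miR-200c B or miR-200c C, up to 0.144).

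**Figure D5:**
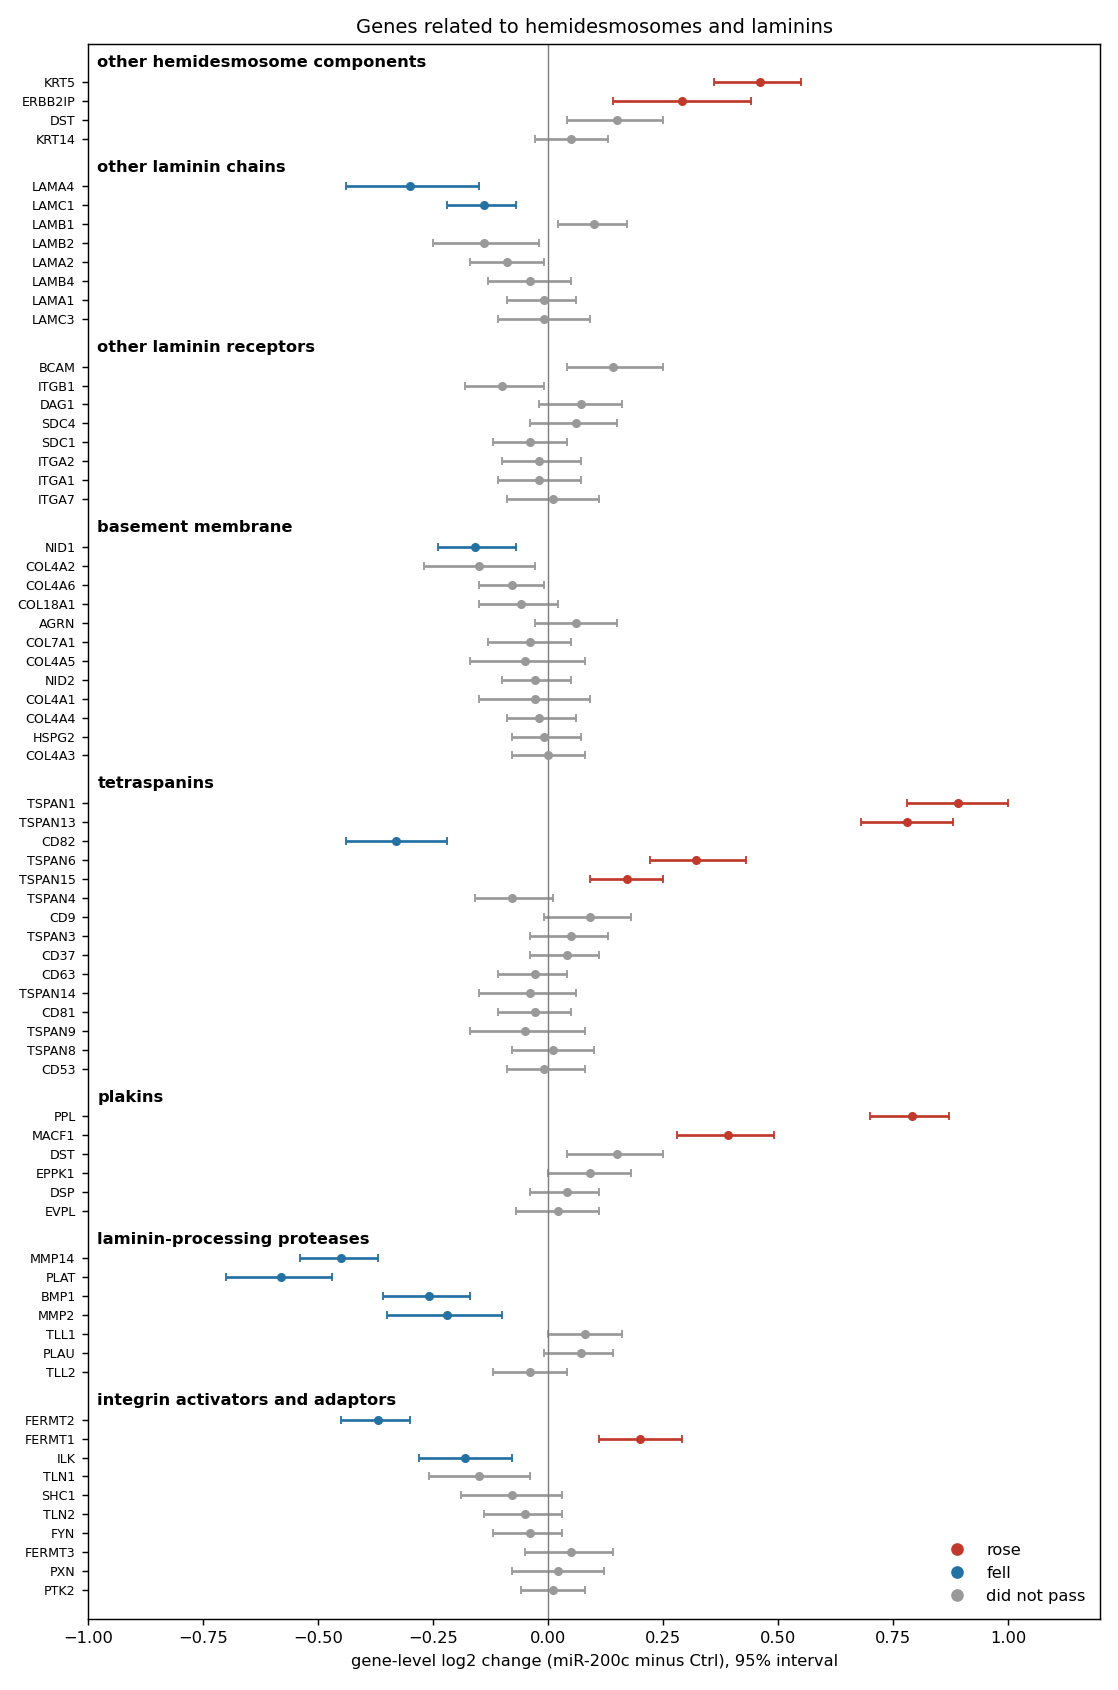
Change in log2 (miR-200c minus Ctrl) with its 95% limma interval for the measured genes of the 8 related lists, drawn from 3 arrays a group. TSPAN1, PPL and TSPAN13 lie furthest above 0, and PLAT and MMP14 furthest below.

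Among 7994 genes with at least 3 rows and a mean above the background range, those whose pattern over the 6 arrays was most like that of ITGB4 were ACSS3, GORASP2, DMC1, TSEN15 and BCR, with Pearson correlations between 0.9971 and 0.9984. The measure uses the same 6 values that hold the difference between groups, and it is given as a description. TSEN15 shows its limit: the correlation was 0.9975 while its change was 0.10, with an adjusted p of 0.0905.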

How the data were processed

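Total RNA from 6 cultures was hybridised to an Affymetrix human transcriptome array. The values are log2 intensities, 1 per row and array, as the authors deposited them. The submitters' processing notes name Partek, without its version or role. How the background was corrected, how arrays were normalized and which genome build was used was not recorded in the labels used here. Per the labels' protocols 1 µg of RNA was labelled with a FlashTag kit. The range of the deposited values is the basis for calling their scale log2.

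Control rows (345 of 925032) were left out. Gene names came from GEO's platform annotation: 672085 tested rows have 1 symbol, 39483 several and 213119 none. A gene's level was the mean of its rows with that symbol alone. Genes, rows, and rows minus their gene's mean (genes with at least 3 rows) were tested over all 6 arrays with limma 3.58.1 in R 4.3.3, with Benjamini-Hochberg adjustment over the whole table and a threshold of 0.05. The steps were tested on simulated data. The labels call the cultures biological triplicates plated in triplicate, so p-values measure the spread between those cultures, which may be partly technical, and 3 arrays a group limit the precision.

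The text names the members, up to 4 rows of each with the largest called change and rows with the smallest p relative to the gene, up to 4 genes with the smallest called p of each related list, and the 5 genes most like ITGB4. Members and lists were chosen with earlier results of these data known. Alternatives were the median of rows, exon-region or junction rows alone, brighter rows or genes, rows above background in both groups (added after seeing the data), a variance trend, quantile normalization, the replicate letter as a block and leaving out each array.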

Additional observations from a re-analysis of the deposited data

How the results depend on the processing

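No result reversed under the alternatives run. The ITGB4 call was lost on rows above background in both groups alone, an alternative chosen after seeing the data (change 0.05, adjusted p = 0.738). With it 1 member rose, and of the related genes 7 rose and 6 fell. That filter drops rows bright in 1 group. Brighter rows by their mean over the 6 arrays, which keep such rows, gave 0.36 (adjusted p = 0.0263). ITGB4 passed under the other alternatives, with changes of 0.42 to 0.46 and adjusted p of 0.000694 to 0.0023 when 1 array was left out; ITGA6 then gave 0.30 to 0.39 and 0.00959 to 0.0346. Taking row medians, ITGA6 changed by 0.43 (adjusted p = 0.233), and with junction rows alone by 0.43 (adjusted p = 0.0644), so that 1 member rose in each, against 2; the cause was not tested. ITGA3 ran between 0.10 and 0.16 when 1 array was left out, and passed without Ctrl replicate B. Of the related genes, 9 rose and 10 fell. The median of rows gave 4 that rose and 4 that fell, and brighter rows gave 7 and 6. Leaving out 1 array gave 6 to 8 that rose and 5 to 8 that fell. With the median of rows KRT5, ERBB2IP, LAMA4, LAMC1, NID1, TSPAN6, TSPAN15, BMP1, MMP2, FERMT1 and ILK lost their calls.

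At the row level, 14 member rows rose and 1 fell, against 2 to 6 and 0 to 1 with 1 array left out, and 6 and 0 with brighter rows alone. With a variance trend 18 rose and 1 fell: ITGA6 had 5 rows that rose in place of 1, ITGB4 13 in place of 11, and ITGA3 and LAMA3 0 in place of 1 each. Rows higher than their gene numbered 2, against 1 with the median of rows, 1 with brighter rows and 1 to 2 with 1 array left out; rows lower numbered 1, against 2 with the median of rows and 0 to 1 with 1 array left out. With the replicate letter as a replicate block, 2 member rows rose and 0 fell, and 1 was higher and 0 lower than its gene, while the member genes kept their calls; LAMC1, NID1 and MMP2 lost theirs. Deviations of same-letter arrays from their group means had r = -0.17, -0.03 and 0.22 for A, B and C. Ctrl A and Ctrl B correlated best with another letter, while Ctrl C correlated equally with miR-200c B and C (0.22). Deviations from a group's own mean constrain one another, so these values cannot tell whether same-letter cultures shared a batch. The background rows limit what dim rows, most of ITGB4 and LAMA3 among them, can show.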
